A study of Mus musculus with 40 samples.

Results

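Regulatory T cells (Treg) sorted from mouse lung were compared with Treg from kidney, liver and pancreas. The 12 libraries of this comparison, 3 from lung and 9 from the other organs, were chosen by their source and cell type labels from a series of 40 libraries. Treg were CD4+ Foxp3Thy1.1+ cells and conventional T cells (Tconv) were Foxp3Thy1.1- cells, where Thy1.1 is a surface reporter of the Foxp3 locus, and all came from wild-type (WT) mice whose organs were perfused and digested. The labels give no age, sex or other treatment. The 10 sources are represented by 3 Treg libraries and 1 Tconv library each, of 2000 cells, and 3′ mRNA ends were counted. Replicates carry the numbers 1, 5 and 6 in lung, 1, 3 and 5 in kidney, 1, 3 and 4 in liver and 1, 5 and 6 in pancreas. Which libraries come from the same animal is not labelled, so every p-value measures the spread between these samples, which may be technical.

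Treg restrain immune responses and are defined by the transcription factor Foxp3. In organs they take up additional programs: chemokine and sphingosine 1-phosphate receptors set whether a cell enters, stays in or leaves a tissue, and annexins, galectins and S100 proteins act at the membrane and the actin cortex of activated T cells. Early response genes such as Fos and Jun are switched on quickly by stimulation, and heat shock genes by protein stress. In bulk RNA, fewer cells expressing a gene and less RNA per cell cannot be told apart.

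Lung Treg replicate 1 stood apart from the other lung libraries. Over the 500 most variable genes its Euclidean distance on log2(CPM + 1), where CPM is a count scaled to the library total, was 54.3 and 54.0 to lung replicates 5 and 6, which were 36.2 apart, and its nearest library was kidney replicate 1 at 41.9. Kidney replicate 1 was likewise 45.1 and 49.7 from kidney replicates 3 and 5, which were 19.0 apart. Pancreas replicate 6 was 38.3 and 43.9 from pancreas replicates 1 and 5, which were 21.7 apart. Lung replicate 6 lay at a mean of 44.8 from lymph node Treg and of 45.1 from the other lung libraries. Xist, the RNA that silences an X chromosome in female cells, was at 0 in lung replicate 1 and at 135 and 219 CPM in lung replicates 5 and 6. The Y-linked genes Ddx3y, Uty, Eif2s3y and Kdm5d together reached 315 CPM in replicate 1 and at most 0.353 CPM in the other 2. Pancreas replicates 1 and 5 and all 3 lymph node Treg libraries also had Xist, while no kidney or liver Treg library exceeded 0.0953 CPM. The level of the noncoding transcript Gm26917 also differed within lung, at 19199 CPM in replicate 1 against 2595 and 2925 CPM. It was 9274 to 23540 CPM in kidney, 22104 to 51471 CPM in liver and 3554 to 16360 CPM in pancreas Treg. Spleen Treg, with at most 0.0736 CPM of Xist, had 2235 to 3109 CPM of Gm26917. Rank correlation of a library's deviation with gene length over 9681 genes, a description across genes, was 0.0223 in lung replicate 1, -0.266 in replicate 5 and -0.387 in replicate 6. It was -0.289 in liver replicate 4 and 0.0237 to 0.229 in the other kidney, liver and pancreas Treg libraries. Lymph node Treg replicates 10, 6 and 7, whose averages are given below for some genes, had -0.318, 0.0861 and -0.340. Whether sex, gene length or library make-up takes part in the results below was not tested beyond the values given beside them. Total counts of the 12 libraries ran from 17545858 to 27226115. Foxp3 stood at 287, 134 and 135 CPM in lung replicates 1, 5 and 6 and between 145 and 290 CPM in the 9 others, a log2 fold change of -0.13 ± 0.22 (SE, edgeR adjusted p = 0.784). It was -0.63 ± 0.22 (adjusted p = 0.0559) without lung replicate 1, and -0.67 (adjusted p = 0.0405), called lower, without lung replicate 1 and kidney replicate 1 together.

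Genes given as lung Treg markers, Ccr4, Tagln2 and Lgals3, were each higher in lung, with differing stability. Ccr4 (ENSMUSG00000047898.7, mm10 chromosome 9, 114490316 to 114504916, minus strand), the receptor for the chemokines Ccl17 and Ccl22, had 186, 188 and 175 CPM in lung. It had 38.2, 144 and 134 CPM in kidney, 88.6, 88.2 and 96.7 CPM in liver and 85.5, 86.5 and 65.7 CPM in pancreas. All 3 lung libraries lay above all 9 others, and lung Tconv had 162 CPM against 56.8, 30.3 and 21.4 CPM in kidney, liver and pancreas Tconv. Its log2 fold change against the unweighted mean of the 3 organs was 1.0 ± 0.26 (SE, adjusted p = 0.030), or 0.96 ± 0.30 (adjusted p = 0.0318) without lung replicate 1. The call was lost, at an adjusted p of 0.0518 to 0.109, without any 1 of lung replicates 5 and 6, liver replicates 1 and 3 and pancreas replicates 1 and 5. Blood, spleen and lymph node Treg averaged 33.4, 49.3 and 49.2 CPM.

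Tagln2 (ENSMUSG00000026547.15, chromosome 1, 172500047 to 172507380, plus strand) encodes transgelin-2, an actin-binding protein of the T cell synapse. It had 804, 940 and 926 CPM in lung. In kidney it had 327, 654 and 640 CPM, in liver 505, 542 and 729 CPM and in pancreas 367, 500 and 408 CPM. The lung libraries again lay above all 9 others, by 0.79 ± 0.17 on the log2 scale (adjusted p = 0.00975) and by 0.83 ± 0.19 (adjusted p = 0.00476) without lung replicate 1. Leaving out lung replicate 6 gave an adjusted p of 0.0687. Lung Tconv stood at 923 CPM and kidney Tconv at 759 CPM. Lgals3 (ENSMUSG00000050335.17, chromosome 14, 47367751 to 47386160, plus strand) encodes galectin-3, a glycan-binding lectin that macrophages and epithelium also make. It had 47.5, 232 and 149 CPM in lung and between 17.7 and 93.5 CPM in the 9 others, so replicate 1 lay inside their range. Its difference was 1.66 ± 0.45 (adjusted p = 0.0335), and 2.05 ± 0.45 (adjusted p = 0.00408) without replicate 1. The call was lost without any 1 of lung replicates 5 and 6, kidney replicates 1 and 5, liver replicates 1 and 3 and pancreas replicate 1, with adjusted p from 0.0519 to 0.215. With libraries split by Xist as a factor, added after seeing the data, Lgals3 differed by 0.70 (adjusted p = 0.444) and Ccr4 by 0.93 (adjusted p = 0.0652). With pancreas left out of the reference none of the 3 markers passed, at adjusted p = 0.0878 for Ccr4, 0.0561 for Tagln2 and 0.0810 for Lgals3, and none passed in a fit of the 4 organs alone (0.141, 0.125 and 0.126). Lgals3 also missed the threshold without kidney in the reference (0.0753) and with no filter on low counts (0.0704).

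**Figure D1:**
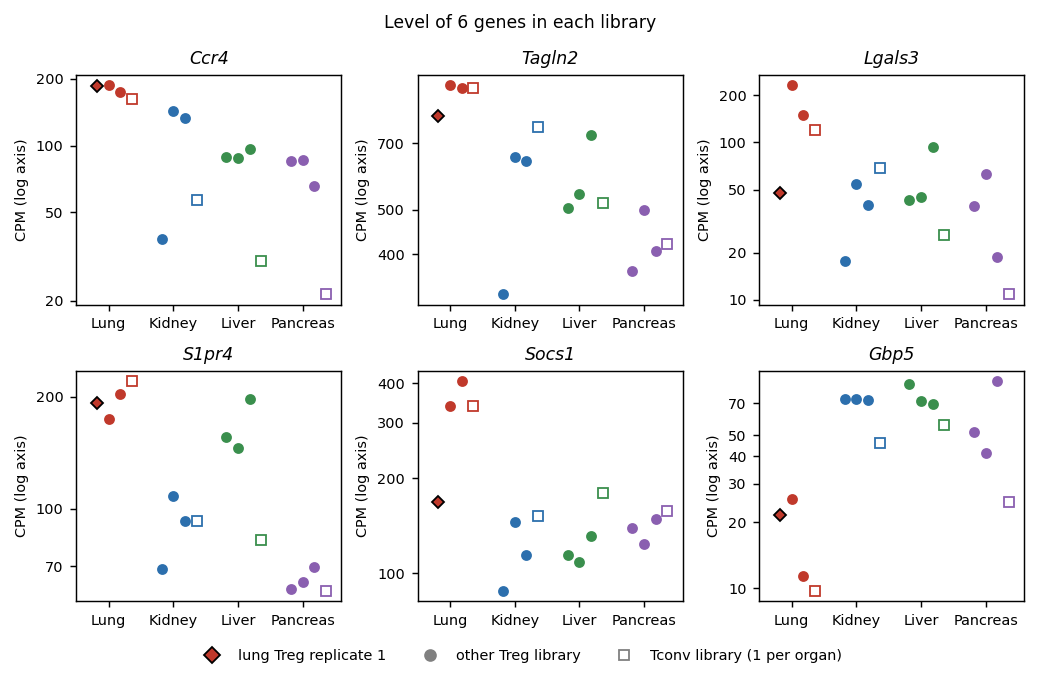
Level of 6 genes in CPM (log axis) in each library of lung, kidney, liver and pancreas. Filled points are Treg libraries, the diamond is lung replicate 1 and open squares are the single Tconv library of each organ. Ccr4, Tagln2 and Socs1 sit above all 9 other Treg libraries in lung and Gbp5 below them, while S1pr4 in lung overlaps liver.

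Across all genes, 876 of 17909 (4.89%) were called by edgeR at a Benjamini-Hochberg adjusted p below 0.05, 524 higher in lung Treg (2.93%) and 352 lower (1.97%). By at least 2-fold there were 236 higher and 198 lower. The median log2 fold change of all genes tested was 0.06. Without lung replicate 1 the count was 3192 of 19259 (16.6%), 1431 higher (7.43%) and 1761 lower (9.14%), and 773 genes were called in both fits, 772 of them in the same direction. The count was 140 without lung replicate 6, 581 and 571 without kidney replicates 3 and 5, 482 and 423 without liver replicates 1 and 3, and 435 and 509 without pancreas replicates 1 and 5. Against single organs it was 474 for kidney (2.65%, 1.3% higher and 1.35% lower), 491 for liver (2.74%, 1.45% higher and 1.29% lower) and 730 for pancreas (4.08%, 1.86% higher and 2.22% lower), comparisons that share the lung libraries. With lung replicates 5 and 6 only, these were 2673 (13.9%, 5.02% higher and 8.86% lower), 1700 (8.83%, 3.07% and 5.75%) and 2421 (12.6%, 4.46% and 8.11%). Of all genes tested, 312 (1.74%) had all 3 lung libraries above all 9 others and 275 (1.54%) had all 3 below.

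The 10 genes with the smallest p-values among those at least 2-fold higher were spread over cell functions. Lcmt2, which encodes a tRNA-modifying enzyme, had 48.6, 79.2 and 74.6 CPM in lung against 15.4 to 30.6 CPM in the 9 other libraries, a log2 fold change of 1.52 ± 0.22 (adjusted p = 0.000602). Its lung and other libraries did not overlap, and lymph node Treg averaged 67.9 CPM. Socs1 (ENSMUSG00000038037.5, chromosome 16, 10782240 to 10785536, minus strand), the feedback inhibitor of cytokine receptor kinases, had 169, 338 and 406 CPM in lung against 88.1 to 148 CPM, a difference of 1.30 ± 0.22 (adjusted p = 0.00216). Lymph node Treg averaged 384 CPM of Socs1 and lung Tconv had 340 CPM. Cd9, a tetraspanin of the cell surface, had 134, 391 and 207 CPM in lung against 25.4 to 115 CPM, or 1.78 ± 0.30 on the log2 scale (adjusted p = 0.00216). Bet1l, a SNARE protein of the Golgi, differed by 1.46 ± 0.22, Sft2d3, a vesicle transport protein, by 1.40 ± 0.23, Snrnp48, a protein of the minor spliceosome, by 1.20 ± 0.20, and Txndc9, a thioredoxin-domain protein, by 1.01 ± 0.16. The antisense transcript Zbtb11os1 differed by 1.54 ± 0.22, and since strand use in counting is not stated its reads cannot be told apart from those of an overlapping gene. Without lung replicate 6 the adjusted p of Sft2d3, Socs1 and Snrnp48 was 0.0678, 0.0532 and 0.0513.

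Xist and Cbr2 completed the 10. Xist differed by 8.12 ± 1.15, and lung replicate 1, at 0, lay below pancreas replicates 1 and 5 at 57.9 and 67.2 CPM. Cbr2, a carbonyl reductase abundant in lung tissue, had 4.02, 46.4 and 14.1 CPM in lung, 26.9 CPM in lung Tconv, and 20 counts in all over the 9 other Treg libraries. It was lowest in lung replicate 1, as were the summed markers of lung epithelium given below, whose part in its difference was not tested.

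The 10 genes lowest by the same rule included Ercc6l2, Rgs3 and Cd40lg, with Gbp5 described further down. Ercc6l2 (ENSMUSG00000021470.19, chromosome 13, 63815240 to 63900302, plus strand), a helicase-like protein of DNA repair, had 6.63, 6.03 and 5.35 CPM in lung. It had 28.5, 26.5 and 30.8 CPM in kidney, 25.0, 33.0 and 15.7 CPM in liver and 52.1, 54.6 and 46.2 CPM in pancreas. Every lung library lay below all 9 others, and the log2 fold change was -2.46 ± 0.24 (adjusted p = 2.78e-06), or -2.56 ± 0.29 without lung replicate 1. Rgs3, a regulator of G protein signalling that acts downstream of chemokine receptors, had 8.39, 20.6 and 26.1 CPM in lung against at least 44.7 CPM, a difference of -2.18 ± 0.31 (adjusted p = 0.000602). Pfas, an enzyme of purine synthesis, differed by -1.97 ± 0.29 and Pik3r2, a regulatory subunit of phosphoinositide 3-kinase, by -2.03 ± 0.34. Pik3r2 reached -2.78 ± 0.36 without lung replicate 1. Apol7e, an apolipoprotein L gene, differed by -1.87 ± 0.32, Arhgap27, a GTPase-activating protein, by -1.39 ± 0.24, and Snrnp70, a core splicing protein, by -1.07 ± 0.19. Of the 10 lower named genes, 9 passed against kidney, liver and pancreas each. The exception was Cd40lg, the ligand of CD40 on B cells and dendritic cells, at 33.8, 24.6 and 20.7 CPM in lung, 78.4, 153 and 186 CPM in kidney, 119, 141 and 65.2 CPM in pancreas and 31.7, 39.7 and 29.8 CPM in liver. Its difference was -1.60 ± 0.28 (adjusted p = 0.00261) over the 3 organs and -0.35 (adjusted p = 0.554) against liver.

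**Figure D2:**
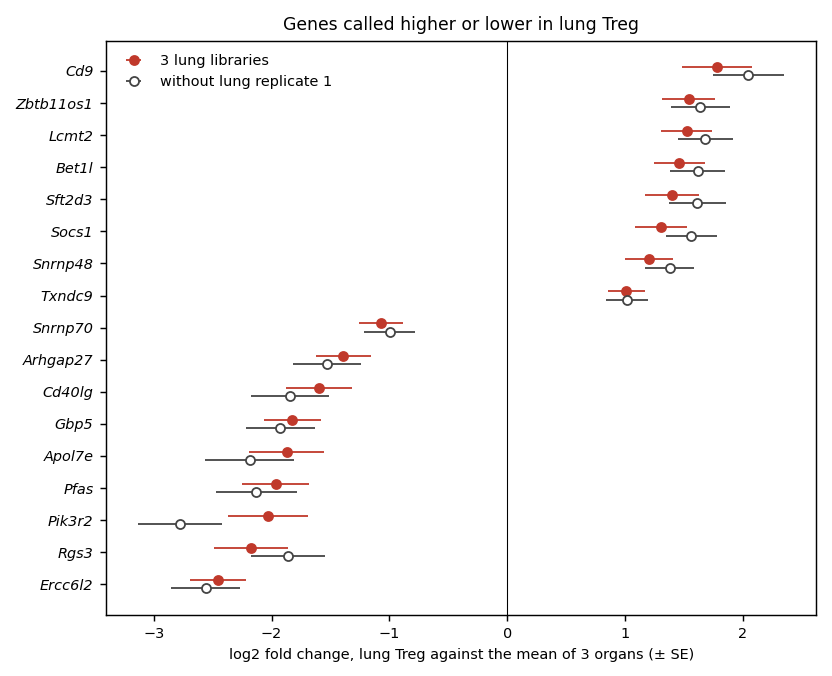
Log2 fold change (± SE) of called genes in lung Treg against the mean of kidney, liver and pancreas Treg, with all 3 lung libraries (filled) and without lung replicate 1 (open). Signs are the same in both, and Pik3r2 moves from -2.03 to -2.78.

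Among 24 chemokine and egress receptors, 4 were higher in lung Treg and none lower (median log2 fold change 0.56, against 0.06 for all genes). Of all genes, 2.93% were higher and 1.97% lower. S1pr4, a sphingosine 1-phosphate receptor of lymphocytes, had 193, 175 and 203 CPM in lung, 68.9, 108 and 92.7 CPM in kidney, 156, 146 and 198 CPM in liver and 60.9, 63.3 and 69.4 CPM in pancreas. Its difference was 0.94 ± 0.13 (adjusted p = 0.000536), and 0.90 ± 0.15 without lung replicate 1, while against liver it was 0.19 (adjusted p = 0.556), where the values overlapped. S1pr1, the receptor that draws lymphocytes out of tissue and lymph node, had 3805, 1052 and 983 CPM in lung and between 460 and 1328 CPM in the others. Only replicate 1 lay above them, and the difference of 1.24 ± 0.32 (adjusted p = 0.0273) became 0.28 ± 0.30 (adjusted p = 0.589) without it. Its call was also lost, at 0.0508 to 0.0546, without kidney replicate 3 or 5, liver replicate 1 or 3 or pancreas replicate 1. S1pr5 was at 0, 0.588 and 3.95 CPM in lung with 0 counts in all 9 others, so that its level rested mostly on lung replicate 6, and lost its call (adjusted p 0.0564 to 0.190) without any 1 library except lung replicate 1. Without lung replicate 1, 5 of the 24 were higher and 2 lower (median 0.25), where 7.43% of all genes were higher and 9.14% lower. Gpr15, a homing receptor, was then called higher at 1.06 ± 0.33 and Cxcr5, the follicle-homing receptor, lower at -1.53 ± 0.50. Against kidney 3 of the 24 were higher and 1 lower with all 3 lung libraries (1.3% and 1.35% of all genes). Against liver these were 1 and 0 (1.45% and 1.29%) and against pancreas 4 and 1 (1.86% and 2.22%). With lung replicates 5 and 6 only, 3 were higher and 4 lower than in kidney (5.02% and 8.86%, median -0.06). For liver it was 3 and 0 (3.07% and 5.75%) and for pancreas 4 and 2 (4.46% and 8.11%).

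Members of the S100, annexin and galectin families had a median of 0.59 over 15 genes, of which Lgals3 alone passed (4.89% of all genes). The median without lung replicate 1 was 0.82, with 7 higher and 1 lower, where 7.43% of all genes were higher and 9.14% lower. Those called then included Lgals1 (1.16 ± 0.33), Anxa2 (1.21 ± 0.33), S100a6 (1.22 ± 0.39) and S100a10 (0.85 ± 0.27), and the lower one was Anxa6 (-0.79 ± 0.20). Lgals1, which encodes galectin-1, had 360, 624 and 788 CPM in lung against 134 to 614 CPM in the 9 others, so that 1 lung library overlapped them. S100a6, a calcium-binding protein, had 180, 263 and 305 CPM against 33.0 to 223 CPM. With all 3 lung libraries, none passed by edgeR against kidney (median 0.59). Against liver 1 was lower (median 0.21, 1.29% of all genes) and against pancreas 3 were higher (median 0.91, 1.86%). With lung replicates 5 and 6 only, 3 were higher and 1 lower than in kidney (5.02% and 8.86%). It was 1 and 1 for liver (3.07% and 5.75%) and 6 and 0 for pancreas (4.46% and 8.11%).

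Genes of the actin cytoskeleton changed in both directions, with 6 of 40 higher, 2 lower and a median of 0.00. Of all genes, 2.93% were higher and 1.97% lower. Beside Tagln2, Emp3, a membrane protein, had 190, 381 and 499 CPM in lung against 105 to 397 CPM, a difference of 0.91 ± 0.20 (adjusted p = 0.0129). In the other direction, Lcp1, the leukocyte actin bundler L-plastin, had 1878, 1755 and 1090 CPM in lung against 2160 to 3633 CPM, with no overlap, or -0.93 ± 0.20 (adjusted p = 0.0115). Cnn2, a calponin, differed by -0.62 ± 0.14. Without lung replicate 6, Emp3, Lcp1 and Cnn2 had adjusted p-values of 0.198, 0.0979 and 0.0892. With lung replicates 5 and 6 only, 6 were higher and 10 lower, where 7.43% of all genes were higher and 9.14% lower. Of 17 integrin chains, Itgal and Itgb2, the 2 chains of LFA-1, were lower and none higher, where 1.97% of all genes were lower. Itgal had 1042, 517 and 372 CPM in lung against 843 to 1344 CPM, a difference of -0.83 ± 0.23 (adjusted p = 0.0371) that reached -1.39 ± 0.22 without lung replicate 1. Itgb2 differed by -0.48 ± 0.14 (adjusted p = 0.0467). The calls of Itgal and Itgb2 were lost without lung replicate 6 (adjusted p = 0.210 and 0.273), liver replicate 1 or 3 or pancreas replicate 1 or 5 (adjusted p 0.0555 to 0.0639). That of Itgal was also lost without lung replicate 5 (0.142), and that of Itgb2 without kidney replicate 3 or 5 (0.0646 and 0.0533). Of 12 T cell identity genes, 0 passed by edgeR with all 3 lung libraries (median -0.10). Without lung replicate 1, Cd4 (-1.14) and Cd5 (-0.91) were lower and 0 were higher (median -0.30), where 9.14% of all genes were lower. Cd4 had 933, 540 and 334 CPM in lung against 775 to 1198 CPM in the 9 others. Whether a wider shift of T cell transcripts takes part in the integrin differences was not tested.

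Early response genes separated the lung libraries from each other. The 26 genes of the AP-1 and early response list, the transcription factors and phosphatases switched on within minutes of stimulation, summed to 17572 CPM in lung replicate 1 and to 3619 and 4357 CPM in replicates 5 and 6. The sums were 17665 to 32889 CPM in kidney, 3052 to 3570 CPM in liver and 12784 to 24176 CPM in pancreas, so replicate 1 lay within the range of pancreas and just below the lowest kidney library, and the other 2 just above liver. With all 3 lung libraries, 3 of 25 tested were lower (median -0.22), where 1.97% of all genes were lower. Without replicate 1, 15 of 26 were lower (median -1.73), where 9.14% of all genes were lower. Jun had 161, 25.9 and 29.7 CPM in lung, 885, 1659 and 1391 CPM in kidney, 87.7, 85.1 and 97.6 CPM in liver and 234, 481 and 800 CPM in pancreas. The Jun difference of -2.44 ± 0.71 (adjusted p = 0.0475) was -3.84 ± 0.84 (adjusted p = 0.00418) without replicate 1. Zfp36, an RNA-decay factor, differed by -1.18 ± 0.35, or -1.95 ± 0.37 without replicate 1, and Egr1 by -1.12 ± 0.32. These 3 calls rested on few libraries: Jun, Zfp36 and Egr1 each lost them without any 1 of lung replicate 5, kidney replicates 3 and 5, liver replicates 1, 3 and 4 and pancreas replicates 1 and 5, with adjusted p from 0.0532 to 0.185. Without lung replicate 6 it was 0.201 for Jun and 0.219 for Zfp36, and without pancreas replicate 6 it was 0.0596 for Jun. Against liver alone, 10 were higher in lung with all 3 libraries (median 1.63), where 1.45% of all genes were higher. Without replicate 1 it was 2 of 26 (median 0.52), where 3.07% of all genes were higher. Nr4a1, an orphan receptor induced by antigen receptor signals, had 1629, 119 and 252 CPM in lung and 49.5 to 87.7 CPM in liver. Without replicate 1, 22 were lower than in kidney (8.86% of all genes) and 16 than in pancreas (8.11%).

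Of 15 heat shock genes 2 were lower in lung and none higher (median -0.89, with 1.97% of all genes lower). Without lung replicate 1, 10 were lower (median -1.58), where 9.14% of all genes were lower. With all 3 lung libraries, 3 were lower against kidney (1.35% of all genes), 2 against pancreas (2.22%) and 0 against liver (1.29%) by edgeR. Hspa1a, the inducible chaperone Hsp70, had 0.680, 0.0392 and 0.312 CPM in lung. It had 265, 2106 and 1656 CPM in kidney, 5.12, 9.76 and 4.82 CPM in liver and 2.02, 3.38 and 1285 CPM in pancreas, so that every lung library lay below every other but the spread within pancreas was wide. Its log2 fold change was -8.91 ± 2.11 (adjusted p = 0.0203), and the call was lost without lung replicate 5 or 6 (adjusted p = 0.0741 and 0.107). It was -6.51 (adjusted p = 0.0116) without pancreas replicate 6 and -9.91 (adjusted p = 0.0220) without lung replicate 1. Hspa1b, its near-identical neighbour, had 6.63, 0.313 and 6.76 CPM in lung, 587 to 5337 CPM in kidney, 14.3 to 66.3 CPM in liver and 8.92, 3.12 and 2688 CPM in pancreas. Counts of Hspa1a and Hspa1b may be split between them by the authors' counting and are uncertain. The Hspa1b difference of -6.69 ± 1.92 (adjusted p = 0.0463) was lost (adjusted p 0.0518 to 0.158) without any 1 of the 3 lung and 3 liver libraries, kidney replicates 3 and 5 and pancreas replicate 6.

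Promoter sequence of 3 genes that moved in lung is shown because the heat shock and interferon groups are read through short motifs bound by the heat shock factor and by STAT proteins. Each is the 200 bases upstream of the start in RefSeq, GRCm38.p6, read 5′ to 3′ on the gene's strand, with motif matches in capitals. Hspa1a is at chr17:34972157-34972356 (minus strand), Gbp5 at chr3:142496734-142496933 (plus strand) and Socs1 at chr16:10785537-10785736 (minus strand).
Hspa1a: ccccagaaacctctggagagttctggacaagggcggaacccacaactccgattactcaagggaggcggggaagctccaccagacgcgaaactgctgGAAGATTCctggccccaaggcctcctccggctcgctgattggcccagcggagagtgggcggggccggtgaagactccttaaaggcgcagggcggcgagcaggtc
Gbp5: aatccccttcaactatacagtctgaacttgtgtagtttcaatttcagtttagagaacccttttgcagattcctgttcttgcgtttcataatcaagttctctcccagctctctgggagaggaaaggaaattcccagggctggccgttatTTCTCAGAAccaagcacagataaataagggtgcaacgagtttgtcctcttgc
Socs1: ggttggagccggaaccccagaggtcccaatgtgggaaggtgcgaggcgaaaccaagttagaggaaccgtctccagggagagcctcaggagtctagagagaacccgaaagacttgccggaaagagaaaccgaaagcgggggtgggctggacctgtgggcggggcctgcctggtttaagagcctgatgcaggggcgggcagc
The heat shock forms searched on both strands were GAANNTTC and TTCNNGAA, and either occurred in 10.4% of 32851 promoters of this length. The first matched once in Hspa1a. Hspa1b shared 199 of 200 bases. The STAT form searched, TTCNNNGAA, occurred in 5.49% of promoters and matched once in Gbp5 and not in Socs1. No other form linked to interferon was searched. The lack of a match in Socs1 therefore does not show that it lacks interferon motifs, and Gbp5 may hold further ones. A match is a run of letters and not evidence of binding.

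Interferon response genes were mostly lower where they passed, 4 of 40 lower and 1 higher (median -0.28). Of all genes, 1.97% were lower and 2.93% higher. With lung replicates 5 and 6 only, 7 were lower and 4 higher (median -0.13), where 9.14% of all genes were lower and 7.43% higher. Gbp5 (ENSMUSG00000105504.4, chromosome 3, 142493978 to 142522344, plus strand), an interferon-inducible GTPase outside that list, had 21.6, 25.5 and 11.4 CPM in lung, 72.8, 73.0 and 72.1 CPM in kidney, 85.3, 71.5 and 69.6 CPM in liver and 51.7, 41.4 and 88.0 CPM in pancreas. The groups did not overlap, and the log2 fold change was -1.82 ± 0.24 (adjusted p = 0.000307). Zbp1, a nucleic acid sensor, differed by -0.71 ± 0.18, Stat2 by -0.93 ± 0.26 and Gbp4 by -0.73 ± 0.20. The higher one was Ifi27l2a at 0.71 ± 0.21. Without lung replicate 6 the adjusted p was 0.0589 for Zbp1, 0.200 for Stat2, 0.160 for Gbp4 and 0.247 for Ifi27l2a. Stat2 and Gbp4 also lost their calls (0.0572 to 0.0842) without lung replicate 5, kidney replicate 3, liver replicate 1 or 3 or pancreas replicate 1 or 5, Stat2 without kidney replicate 5 (0.0603), and Ifi27l2a without any 1 library except lung replicate 1. With all 3 lung libraries, 10 of 40 were lower than in liver (1.29% of all genes) and 4 lower than in kidney (1.35%). Against pancreas 0 passed in either direction by edgeR (4.08% of all genes). With lung replicates 5 and 6 only, 12 were lower than in liver (5.75%). Then 5 were higher and 6 lower than in kidney (5.02% and 8.86%), and 6 and 1 than in pancreas (4.46% and 8.11%). Gbp2 had 133, 68.1 and 61.5 CPM in lung and 244, 252 and 260 CPM in liver, a difference of -1.52 (adjusted p = 0.00356).

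**Figure D3:**
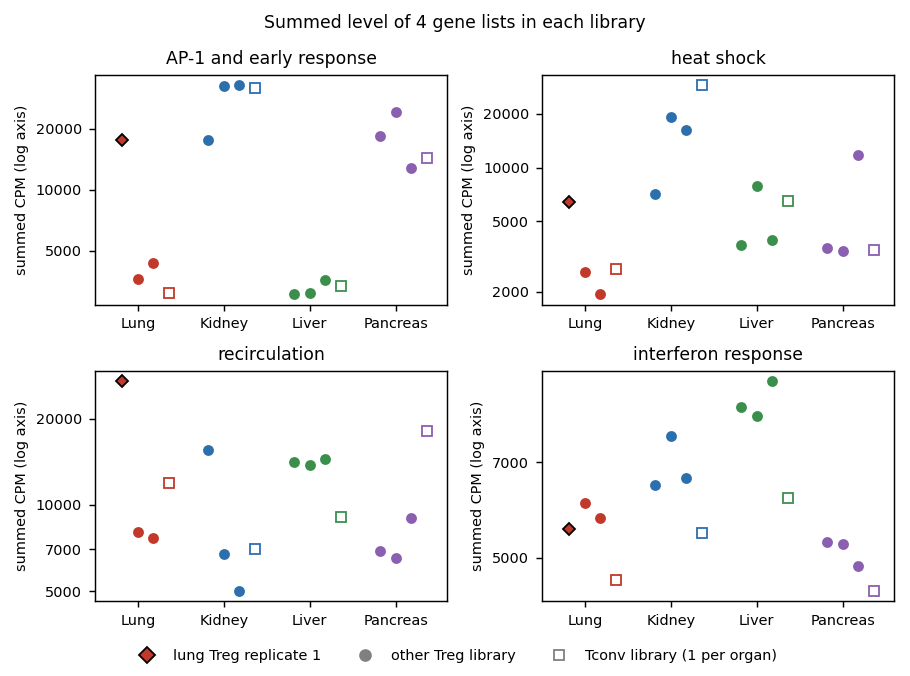
Summed CPM (log axis) of 4 gene lists in each library, with Treg filled, lung replicate 1 as a diamond and Tconv as open squares. Lung replicates 5 and 6 have early response sums of 3619 and 4357, near those of liver, whereas lung replicate 1 has 17572. Interferon response sums in lung lie below all liver libraries.

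Among 23 helper cytokine genes tested, 4 were lower and none higher (median -0.68, with 1.97% of all genes lower). Without lung replicate 1, 5 were lower and 1 higher, where 9.14% of all genes were lower and 7.43% higher. Csf1, a macrophage growth factor, had 7.42, 21.4 and 15.1 CPM in lung against 28.9 to 97.9 CPM, without overlap, a difference of -1.84 ± 0.35 (adjusted p = 0.0050). Ifng, the type II interferon, had 2.21, 1.92 and 3.12 CPM in lung, 12, 93.8 and 118 CPM in kidney, 0.578 to 1.79 CPM in liver and 9.60 to 24.5 CPM in pancreas. Lung Ifng thus lay below kidney and pancreas and above liver, and its difference of -2.33 ± 0.64 (adjusted p = 0.0360) lost its call without lung replicate 5 or 6, kidney replicate 3 or 5, liver replicate 3 or pancreas replicate 1 or 5 (adjusted p 0.0563 to 0.110). Ccl3, a chemokine for monocytes, had 0 counts in lung and 2895 over the 9 others, at least 289-fold lower against a floor of 3 counts over the group, although 2 liver libraries were also at 0. Its adjusted p was 0.0319, and 0.0637, 0.0938 and 1.0 without lung replicate 5, lung replicate 6 and liver replicate 3. Of 19 checkpoint and costimulatory receptors, Cd160 (-1.99 ± 0.33), Lag3 (-1.83 ± 0.39) and Cd200 (-0.87 ± 0.21) were lower and none higher (median -0.20, with 1.97% of all genes lower). Without lung replicate 1, 7 were lower, where 9.14% of all genes were lower. With all 3 lung libraries, 6 were lower against kidney (1.35% of all genes) and 3 against pancreas (2.22%). Against liver 4 were higher (1.45%) and none lower (median 0.57), or 3 (3.07%) and none without lung replicate 1. Lag3, an inhibitory receptor for MHC class II, had 2.72, 2.31 and 4.16 CPM in lung, 13.4 to 21.6 CPM in kidney, 10.3 to 38.5 CPM in pancreas and 1.90 to 3.26 CPM in liver, and lung overlapped liver. Cst7, an inhibitor of granule proteases, differed by -1.25 ± 0.30, the 1 of 15 cytotoxic genes tested that passed, in a list whose median was 0.34 (1.97% of all genes were lower).

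Of 25 Treg signature genes, 2 were lower and none higher (median -0.20, with 1.97% of all genes lower). They encode the pair of enzymes that turn extracellular ATP into adenosine, Entpd1 (CD39) and Nt5e (CD73). Nt5e had 269, 196 and 154 CPM in lung against 261 to 499 CPM, a difference of -0.76 ± 0.16 (adjusted p = 0.0106), and Entpd1 had 60.1, 51.4 and 38.7 CPM against 52.2 to 132 CPM, or -0.76 ± 0.18 (adjusted p = 0.0220). Without lung replicate 6 their adjusted p was 0.0883 and 0.138, and without lung replicate 5 that of Entpd1 was 0.0532. Without lung replicate 1, 7 of 25 were lower and 1 higher (median -0.63), where 9.14% of all genes were lower and 7.43% higher. Against liver 4 were higher and 1 lower (1.45% and 1.29% of all genes). With lung replicates 5 and 6 only, 2 were higher and 4 lower than in liver (3.07% and 5.75%). Ctla4, the inhibitory receptor of Treg, had 1391 CPM in lung replicate 1 and 264 and 313 CPM in replicates 5 and 6, against 244 to 266 CPM in liver and 620 to 1915 CPM in kidney and pancreas. Its difference was -0.20 (adjusted p = 0.819) with all 3 and -1.42 (adjusted p = 0.00845) without replicate 1.

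Tissue Treg, residency and recirculation genes depended on which organ lung was set against. Of 30 tissue Treg genes, 1 was higher (Ccr4) and 2 lower (Lag3 and Irf4), with a median of -0.01. Of all genes, 2.93% were higher and 1.97% lower. Against kidney 7 were lower (1.35% of all genes) and none higher, against liver 4 were higher (1.45%) and none lower, and against pancreas 1 was higher (1.86%) and 4 lower (2.22%). Irf4, a factor of activated Treg, had 42.8, 58.1 and 28.7 CPM in lung, 66.1 to 266 CPM in kidney, 23.7 to 51.6 CPM in liver and 82.7 to 164 CPM in pancreas. Its difference was -1.17 ± 0.33 (adjusted p = 0.0421), with an adjusted p of 0.0627 to 0.204 without lung replicate 6, kidney replicate 3 or 5, liver replicate 3 or pancreas replicate 1 or 5. None of 26 residency genes was called either way by edgeR over the 3 organs (median -0.12). Without lung replicate 1, 8 were lower (median -0.64), where 9.14% of all genes were lower. Against single organs with all 3 lung libraries, 3 were lower than in kidney (1.35% of all genes). In turn, 1 was lower than in pancreas (2.22%) and 9 were higher than in liver (1.45%). With lung replicates 5 and 6 only, 13 were lower than in kidney (8.86% of all genes), 10 lower than in pancreas (8.11%), and 3 higher and 1 lower than in liver (3.07% and 5.75%). Of 21 recirculation genes, S1pr4, S1pr1 and Klf3 were higher (median 0.38, with 2.93% of all genes higher). Without lung replicate 1, 4 were higher and 5 lower (median -0.38), where 7.43% of all genes were higher and 9.14% lower. Klf3, a zinc finger repressor, had 431, 513 and 397 CPM in lung, between the 615 to 693 CPM of liver and the 110 to 288 CPM of kidney and pancreas. The Klf3 difference of 0.62 ± 0.17 (adjusted p = 0.0351) lost its call without 10 of the 12 libraries in turn (adjusted p 0.0503 to 0.144), the exceptions being lung replicate 1 and kidney replicate 1.

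**Figure D4:**
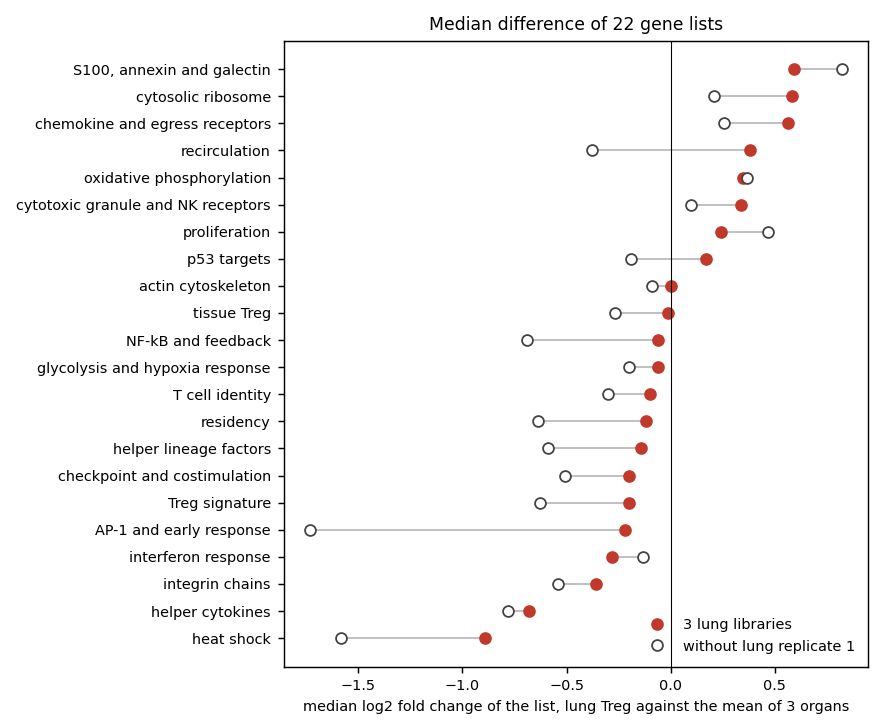
Median log2 fold change of 22 gene lists in lung Treg against the mean of the 3 organs, with all 3 lung libraries (filled) and without lung replicate 1 (open). The AP-1 and early response median moves from -0.22 to -1.73 and the recirculation median from 0.38 to -0.38. The S100, annexin and galectin median goes from 0.59 to 0.82.

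In 4 lists of growth and metabolism genes, at most 1 gene passed in each, where 4.89% of all genes passed. Of 30 cytosolic ribosome genes 1 was higher, Rps14, at 1162, 919 and 1369 CPM in lung against 255 to 865 CPM (1.05 ± 0.30, adjusted p = 0.0419), and the median of the list was 0.58, or 0.21 without lung replicate 1. Of 25 proliferation genes, Cenpa, the centromeric histone, was higher by 1.02 ± 0.20 (adjusted p = 0.00618), with 217, 139 and 199 CPM in lung against 57.8 to 145 CPM. Without lung replicate 6 the adjusted p of Rps14 was 0.190 and that of Cenpa 0.0502. Rps14 also lost its call (0.0532 to 0.0755) without lung replicate 5, kidney replicate 3 or 5, liver replicate 1 or 3 or pancreas replicate 1 or 5. Of 31 oxidative phosphorylation genes, 0 passed by edgeR and the median was 0.35. Of 30 glycolysis and hypoxia genes, Tpi1 was lower (-0.86 ± 0.24, adjusted p = 0.0403), and its adjusted p was 0.0506 to 0.0988 without any 1 lung library, kidney replicate 3 or 5 or pancreas replicate 1. Of 20 NF-kB genes, 0 passed with all 3 lung libraries. Without lung replicate 1, 8 were lower (median -0.69), where 9.14% of all genes were lower.

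Without lung replicate 1, the most firmly called genes not yet named were mixed. Mfsd5 (1.18 ± 0.15), a transporter-like protein, Nipa2 (1.17 ± 0.16), a magnesium transporter, Soat1 (1.26 ± 0.17), which esterifies cholesterol, and the antisense transcript Mypopos (2.23 ± 0.29) were higher. Each was also called with all 3 lung libraries, at 0.90 ± 0.19, 0.93 ± 0.17, 0.97 ± 0.20 and 1.81 ± 0.34, and lost its call without lung replicate 6 (adjusted p 0.0600 to 0.144). Mfsd5 also lost it without lung replicate 5 (0.117). Bcl6, a transcriptional repressor found in follicular T cells, changed sign. It had 319 CPM in lung replicate 1, 4.70 and 9.41 CPM in replicates 5 and 6, and 16.7 to 192 CPM in the others. Its log2 fold change was 0.42 ± 0.62 (adjusted p = 0.753) with all 3 and -3.59 ± 0.39 (adjusted p = 4.48e-06) without replicate 1. Nanos1, an RNA-binding translational repressor, and Cand2, a regulator of cullin ligases, were nearly undetected in lung replicates 5 and 6, at 0.0783 and 0.0520 CPM for Nanos1 and 0.0783 and 0.104 CPM for Cand2. Lung replicate 1 had 14.1 CPM of Nanos1 and 6.91 CPM of Cand2, and the 9 other libraries had 5.31 to 19.1 CPM and at least 12.2 CPM. Elmsan1, a histone deacetylase complex component, differed by -1.96 ± 0.23 without replicate 1 and by -0.56 ± 0.34 (adjusted p = 0.324) with it.

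Markers of other cells differed between the lung libraries. The 16 lung epithelium markers summed to 5.89 CPM in lung replicate 1, with 8 at 0, to 479 and 441 CPM in replicates 5 and 6, and to 614 CPM in lung Tconv. In the 9 other Treg libraries the sum was 2.50 to 54.1 CPM. Of 9 markers tested, 5 were higher in lung (2.93% of all genes). Sftpc, surfactant protein C of alveolar type II cells, had 0.907, 247 and 311 CPM in lung and at most 0.0681 CPM in the 9 other Treg libraries. The 12 alveolar macrophage markers summed to 196, 1756 and 405 CPM in lung replicates 1, 5 and 6 against 127 to 279 CPM, with 7 of the 12 at 0 in replicate 1, and Chil3, a chitinase-like protein of those cells, had 0, 1185 and 150 CPM. Macrophage and monocyte markers summed to 40.8, 1889 and 554 CPM against 84.8 to 1112 CPM. Endothelium markers summed to 0.453, 110 and 17.9 CPM against 0 to 80.6 CPM, and B cell markers to 477, 757 and 781 CPM against 672 to 1243 CPM. The levels of Lgals3, Cd9 and Anxa2, which macrophages also express, were highest in replicate 5, as the macrophage and alveolar macrophage sums were, and the part of such cells in those differences was not tested. Ccr4 and Tagln2 stood at 186 and 804 CPM in replicate 1, where the alveolar macrophage sum lay inside the range of the 9 others, and the part of other cells in their differences was not tested either. Removing all marker genes before scaling gave 781 calls. In the other direction, pancreatic acinar markers, at up to 153010 CPM in pancreas, had 4 of 21 lower in lung (1.97% of all genes).

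**Figure D5:**
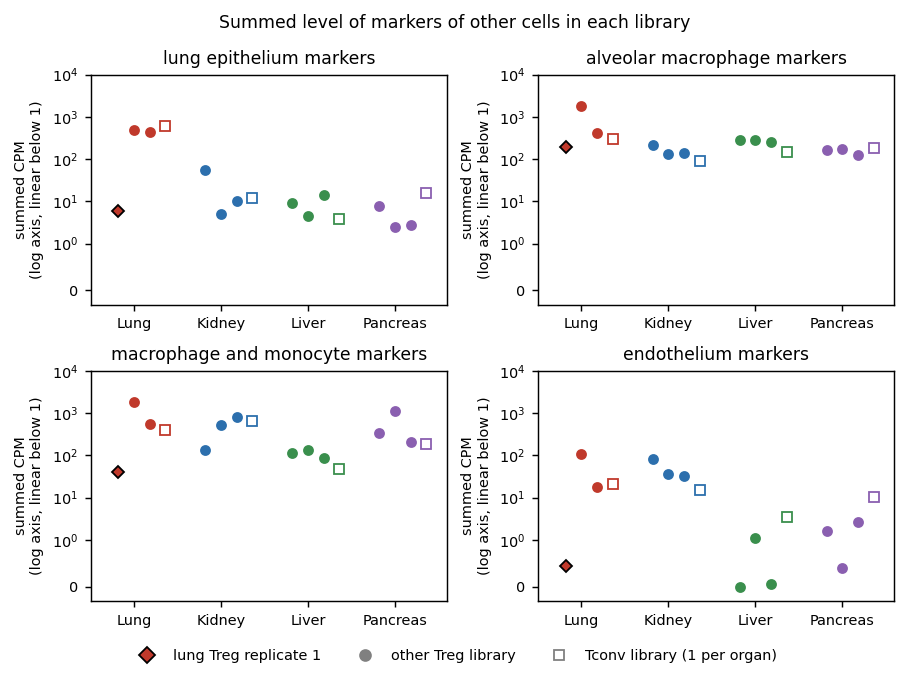
Summed CPM of markers of 4 other cell types in each library (log axis, linear below 1), with Treg filled, lung replicate 1 as a diamond and Tconv as open squares. Lung epithelium sums are 479 and 441 in lung replicates 5 and 6 and 614 in lung Tconv, against 5.89 in lung replicate 1.

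The lung difference was then set against the same difference in Tconv, with 1 Tconv library per source, so that the spread comes from the Treg libraries and a lone Tconv library is assumed to vary like them. The lung difference in Treg minus that in Tconv passed for 178 of 22976 genes (0.775%). It was positive for 150 of them (0.653%) and negative for 28 (0.122%). A positive value need not mean a higher level in lung Treg, since a low lung Tconv library also gives one. With lung replicates 5 and 6 only, the test passed for 287 (1.25%), 200 positive (0.872%) and 87 negative (0.38%). Without lung replicate 5 or 6 it passed for 285 and 287. Ercc6l2 was among them: lung Tconv had 28.7 CPM, near the 35.1 to 38.5 CPM of the other Tconv, and the Treg difference exceeded the Tconv difference by -2.14 (adjusted p = 0.00485). Foxp3 was also among them, at -3.61 (adjusted p = 8.82e-05), with 6.66 CPM in lung Tconv and 0.373 to 1.34 CPM in the other Tconv. For Ccr4, Tagln2 and Lgals3 the test gave -1.32, 0.01 and -0.52 with adjusted p-values of 0.370, 1.0 and 1.0, and the lung difference in Tconv was 2.29, 0.75 and 2.15. Socs1 and Gbp5 likewise had Tconv differences of 1.07 and -2.03 beside Treg differences of 1.30 and -1.82. Lung Tconv had Xist at 163 CPM, like lung Treg replicates 5 and 6. Kidney, liver and pancreas Tconv had 0.0503, 0 and 106 CPM of Xist. Whether a trait shared by these lung libraries takes part in both differences was not tested. A p-value that misses the threshold does not show that Treg and Tconv behave alike.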

How the data were processed

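Messenger RNA 3′ ends (QuantSeq) of sorted Treg and Tconv were measured, and the authors deposited 1 table of whole-number counts per gene (55421 genes). Per the submitters' processing notes the tools were FastQC, Trim Galore, STAR, featureCounts, MultiQC, DESeq and DESeq2 with mm10. Their versions, and whether strand was used in counting, are not given in the sources used here. Symbols and mm10 coordinates came from GENCODE vM21 (54587 identifiers matched with version, 567 without, 267 had no symbol). Promoters came from RefSeq, GRCm38.p6.

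From the counts, edgeR 4.0.16 (R 4.3.3) was fitted with a mean per source to the 30 Treg libraries, which share 1 estimate of the spread, with TMM scaling, filterByExpr, a trended dispersion and a robust quasi-likelihood F test. Lung was set against the unweighted mean of kidney, liver and pancreas, and p-values were adjusted by Benjamini-Hochberg over all genes tested, at a threshold of 0.05. A second fit of all 40 libraries compared the lung difference in Treg with that in Tconv. For CPM, deposited counts were divided by the TMM-adjusted library size. Standard errors were derived from the fold change and the F statistic. Folds against 0 counts used a floor of 3 counts over the group. The procedure was tested on simulated data. Alternatives were limma 3.58.1 (voom), DESeq2 1.42.0, other scaling and filters, a replicate block, other reference organs and leaving out each library. Promoters and figures were handled in Python 3.11.15 with matplotlib 3.10.9.

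Named genes were the 10 higher and 10 lower of smallest p-value among genes called and changed at least 2-fold, with a mean of 10 CPM or more, leaving out predicted genes, receptor segments and markers of other cells. Added to them were 4 per direction without lung replicate 1, the 3 markers, Foxp3, up to 6 members of each of 22 lists with the smallest p, up to 3 of each of 15 marker lists and 5 from the Tconv test. The list members Ctla4 and Nr4a1 were named after their values were seen. Some genes that the rule names are not reported here. The comparison, its members and the gene lists were chosen with earlier results of these data known.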

Additional observations from a re-analysis of the deposited data

Results flagged for a closer look

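The lung difference in Treg and that in Tconv differed for 178 genes by edgeR's test of the difference itself, which rests on 1 Tconv library per organ. For the 5 with the smallest p-values the lung Tconv library was low and the lung Treg libraries lay near the other organs. Hdac6, a cytoplasmic deacetylase, had a log2 difference between the Treg and Tconv effects of 8.36, with 0.0520 CPM in lung Tconv and at least 20.4 CPM in each lung Treg library. 4930503L19Rik differed by 7.40, Gys1, the muscle-type glycogen synthase, by 6.83, and Adcy3, an adenylate cyclase, by 4.06. Kif3c, a kinesin motor, differed by 11.41, a fitted value against 0 counts in lung Tconv. Ercc6l2 differed by -2.14, and Foxp3 by -3.61, with 6.66 CPM in lung Tconv against 0.373 to 1.34 CPM in the other Tconv. No Tconv source has a replicate, so a difference of the cell type and one of the single lung Tconv library cannot be told apart.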

How the results depend on the processing

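The 876 calls against the 3 organs were 140 to 3192 when 1 library was left out. They were 508 with a replicate block (166 higher, 342 lower), 34 with the 4 organs alone, 1959 by the DESeq2 Wald test (969 and 990), 1512 by limma-voom (701 and 811), 381 without pancreas in the reference, 3435 without lung replicate 1 and kidney replicate 1, and 3040 with a length offset without lung replicate 1. With the length offset alone 668 were higher and 345 lower. Against kidney, liver and pancreas in turn, 474, 491 and 730 calls became 296, 321 and 481 with no filter, 189, 49 and 1358 with the replicate block, 8, 0 and 116 with the 4 organs alone, 1411, 1496 and 1698 by DESeq2, and 1890, 1231 and 1979 by limma-voom. They became 2659, 1970 and 2644 without lung replicate 1 and kidney replicate 1, and 2547, 1680 and 2353 with the offset without lung replicate 1. Leaving out 1 library gave 79 to 2673, 71 to 1700 and 219 to 2421. Xist as a factor gave 1246 against liver and 1155 against pancreas. Beside the 0 calls against liver by edgeR, 2333 genes had an unadjusted p below 0.05. The 178 genes that differed between Treg and Tconv became 46 with the 4 organs, 817 by DESeq2, 315 by limma-voom, 323 without both libraries, 329 with the offset without lung replicate 1, 205 with the replicate block and 158 to 287 when 1 library was left out. The causes were not tested. Foxp3, at -0.13, turned to 0.053 and 0.010 without lung replicates 5 and 6 and to 0.076 with Xist as a factor, was -0.67 and called lower without lung replicate 1 and kidney replicate 1, and ran from -0.63 to 0.053 with 1 library left out. Bcl6, at 0.42, ran from -3.59 to 0.98 with 1 library left out, and turned to -0.23 with the replicate block, -3.12 by limma-voom, -3.59 without lung replicate 1, -3.62 without kidney replicate 1 as well, -0.45 without liver and -3.31 with the offset without lung replicate 1. Of 32 named genes, Foxp3, Nanos1, Bcl6 and Elmsan1 had no call to lose. Of the rest, 17 lost their call with the 4 organs alone, 11 without lung replicate 6, 7 with Xist as a factor and 5 with the replicate block. Same-numbered libraries deviated together with r from -0.0565 to 0.0994 over 11 pairs, so the numbers were not taken to pair samples. Some same-numbered libraries also differed in Xist, at 135 CPM in lung replicate 5 and 0.0419 CPM in kidney replicate 5. The replicate block therefore joined libraries with and without Xist. The offset without lung replicate 1 and the Xist factor were chosen after seeing the data.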
